A study of Mus musculus with 9 samples.

Results

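The 52 genes described here encode the proteins that carry a cell through mitosis and cytokinesis, in leukaemic bone marrow of the mouse. They were chosen by name from a list of cyclins, mitotic kinases, kinetochore, spindle, condensin and cleavage proteins, not by a threshold on measured values. Earlier results of these data were known when they were chosen. All 52 had a row in the deposited table of 24391 rows, and all 52 were among the 12573 rows with enough counts to be tested. The RNA came from C57BL/6 mice aged 6 to 8 weeks whose leukaemia carried AML1-ETO9a, a truncated splice variant of the fusion protein AML1-ETO known from human acute myeloid leukaemia. Every sample carried this leukaemia, and no healthy marrow was among them. The cells had been sorted by 2 surface proteins into CD43++ckit+, CD43+ckit- and CD43-ckit- cells, with 3 RNA-seq libraries each. CD43 is carried by most white blood cells and their precursors, and c-Kit is a receptor tyrosine kinase of progenitors and mast cells. The labels do not say whether libraries of 1 population stem from different mice. All p-values therefore rest on the spread among these libraries, which may be technical.

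As background, entry into mitosis is triggered when cyclin-dependent kinase CDK1, bound to cyclin A or cyclin B, is freed of inhibitory phosphate by CDC25 phosphatases. Polo and aurora kinases then build the spindle, kinetochores tie chromosomes to microtubules, and the spindle checkpoint holds back the ubiquitin ligase APC/C until all chromosomes are attached. APC/C with CDC20 destroys securin and cyclin B, separase opens cohesin, and a contractile ring and midbody divide the cell. Most of these genes are transcribed late in the cell cycle under FOXM1, B-MYB and the MuvB core, which binds a promoter element called the CHR, so their transcripts are abundant in cycling progenitors and decline when blood cells stop dividing.

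Levels are given as CPM, counts scaled to a common library size, with TMM factors, a correction for differences in library composition, and differences as log2 fold change ± its standard error, with the first-named population over the other. A gene is called when its adjusted p from edgeR's quasi-likelihood test, corrected over all tested genes by Benjamini-Hochberg, was under 0.05. Depth was 28530150 to 31781746 counts per library for CD43++ckit+, 27378734 to 28214639 for CD43+ckit- and 17966197 to 21609537 for CD43-ckit-. Counting error was thus larger in CD43-ckit-, and it matters most for Cep55, the least abundant of the genes described library by library. The 10 top genes of a library took 4.29% to 4.80% of its counts for CD43++ckit+, 5.43% to 5.65% for CD43+ckit- and 12.2% to 14.1% for CD43-ckit-. Reads may be shared with other genes for 8 of the 52, of whose 50-base words under 90% were found in no other gene's reference transcripts: Ccna2, Ccnb1, Plk1, Cdc20, Kif4, Ncapg, Kif20a and Prc1 (57.9% in Ccnb1 to 89.1% in Plk1). How the counting treated such reads is not stated, so the values of these 8 are uncertain. Kit, which encodes c-Kit, had 146 to 176 CPM in CD43++ckit+ libraries, 7.80 to 21.0 in CD43+ckit- libraries and 18.9 to 42.1 in CD43-ckit- libraries, and Spn, which encodes CD43, had 432 to 555 CPM in CD43++ckit+ cells, 137 to 233 in CD43+ckit- cells and 71.7 to 180.1 in CD43-ckit- cells. Library 3 of CD43++ckit+, library 1 of CD43+ckit- and library 1 of CD43-ckit- correlated least with the others of their populations.

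Transcripts of the mitotic machinery were, for most of the genes, lower in CD43-ckit- cells than in either other population, while few of them passed the test between CD43++ckit+ and CD43+ckit- cells. Against CD43-ckit-, 43 of the 52 genes were higher in CD43++ckit+ and 4 were lower (Cdc25b, Incenp, Nusap1 and Pttg1). The median log2 fold change was 1.08, beside 0.19 over all tested genes, of which 39.7% were called higher, 27.7% lower and 67.4% in either direction. The 43 genes stood in CD43-ckit- at 26.2% (Kif20b) to 74.5% (Kif22) of their mean in CD43++ckit+. Between CD43+ckit- and CD43-ckit- 42 genes were higher in CD43+ckit- and 3 were lower (Cdc25b, Incenp and Cep55), with a median of 1.17 beside 0.13 over all tested genes, of which 31.0% were called higher, 20.9% lower and 51.9% in either direction. Both comparisons share the CD43-ckit- libraries, so they are not separate evidence. The mean was lowest in CD43-ckit- for 46 of the 52 genes (88.5%), and for 46.2% of all tested genes. A joint test of the 3 populations called 49 of the 52 genes, beside 74.8% of all tested genes, and the other 3 were Smc2, Smc4 and Mki67.

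The direction of these counts held under each scaling tried. Scaling by library totals moved the median of all tested genes by 0.91 for CD43++ckit+ over CD43-ckit- and by 0.65 for CD43+ckit- over CD43-ckit-, and the median of the mitotic genes minus that of all genes was then 0.86 and 1.01, beside 0.89 and 1.04 with TMM. Of the calls over all genes, the share that was higher was 58.9% with TMM for CD43++ckit+ over CD43-ckit-, 82.2% with library totals and 49.5% with DESeq2 size factors, and for CD43+ckit- over CD43-ckit- it was 59.7%, 85.2% and 45.8%. In bulk RNA, fewer dividing cells in a population and less of each transcript per cell cannot be told apart. All 52 genes summed to 5971 to 6589 CPM in CD43++ckit+ libraries, 8900 to 9840 in CD43+ckit- libraries and 8676 to 11791 in CD43-ckit- libraries. In that sum every CD43-ckit- library lay above every CD43++ckit+ library. Without the strongly expressed Cdc25b, the 51 other genes summed to 5190 to 5876 CPM in CD43++ckit+ libraries, 5534 to 6702 in CD43+ckit- libraries and 3604 to 3966 in CD43-ckit- libraries. Only in this second sum did no CD43-ckit- library reach either other population. The order of the sums thus depends on Cdc25b. With the least correlated library of each population left out, 43 genes were higher and 4 lower in CD43++ckit+ cells than in CD43-ckit- cells (81.9% of all genes called), and 42 were higher and 5 lower in CD43+ckit- cells than in CD43-ckit- cells (70.2%). The libraries did not overlap for 48 of the 52 genes between CD43++ckit+ and CD43-ckit- (73.2% of all tested genes) and for 45 between CD43+ckit- and CD43-ckit- (64.3% of all tested genes).

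Summed markers of several blood cell types differed between the populations, and their part in these results was not tested. The 15 erythroid markers, all detected in every library, summed to 3542 to 4342 CPM in CD43++ckit+ libraries, 20430 to 24160 in CD43+ckit- libraries and 40680 to 65310 in CD43-ckit- libraries. The 15 neutrophil markers, also detected in every library, summed to 116 to 7181 CPM in CD43++ckit+ cells, 592 to 3919 in CD43+ckit- cells and 4785 to 18790 in CD43-ckit- cells. The 10 monocyte and macrophage markers summed to 13.8 to 95.2 CPM in CD43++ckit+ libraries, 14.3 to 36.6 in CD43+ckit- libraries and 131 to 172 in CD43-ckit- libraries. All 3 sums were highest in CD43-ckit-, except that library 3 of CD43++ckit+ held more of the neutrophil markers than library 1 of CD43-ckit-, at 4785 CPM. The 10 B lineage markers summed to 4.54 to 29.9 CPM in CD43++ckit+ cells, 17.3 to 53.1 in CD43+ckit- cells and 105 to 275 in CD43-ckit- cells. Of 10 T and NK cell markers 9 had a row, and they summed to 5.01 to 24.8 CPM in CD43++ckit+ libraries, 29.9 to 34.8 in CD43+ckit- libraries and 33.3 to 48.6 in CD43-ckit- libraries, with Cd3g, Cd3d, Klrb1c, Ncr1 and Cd8a at 0 in library 2 of CD43++ckit+ and Ncr1 at 0 in library 1 of CD43+ckit-. The 7 progenitor markers, Kit and Spn among them, had their highest sums in CD43++ckit+ libraries, at 787 to 1013 CPM. The sums of CD43+ckit- libraries (198 to 310.0 CPM) and CD43-ckit- libraries (156 to 315 CPM) overlapped. Kit and Spn, the genes of the sorted proteins, held 175.5 and 555.2 of the 1013 CPM in library 1 of CD43++ckit+. The sum thus does not show the direction of the other progenitor markers. Of the 7 markers, 3 to 5 exceeded 1 CPM per CD43++ckit+ library, beside 3 or 4 per CD43+ckit- library and 5 or 6 per CD43-ckit- library. Hoxa9 was at 0 in library 1 of CD43+ckit-.

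**Figure D1:**
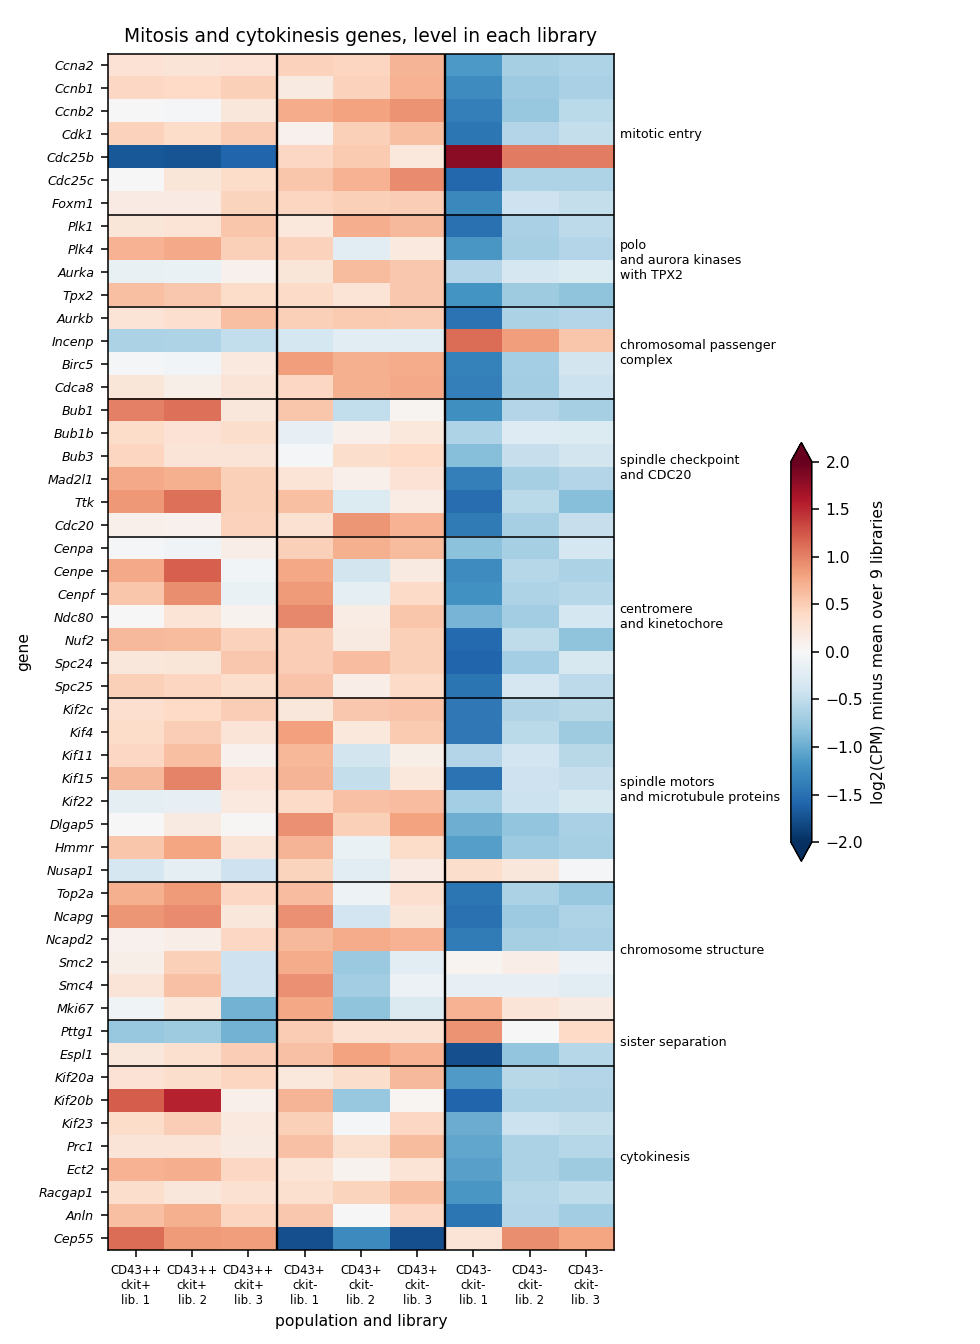
Level of the 52 genes in each of the 9 libraries, as log2 CPM (TMM-scaled) minus the gene's mean over all libraries, with genes in rows by role and libraries in columns. The 3 columns of CD43-ckit- are blue for most rows, and Cdc25b and Incenp run the other way.

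The promoters of these genes shared sequence words, which did not enter the choice of genes. Most of the genes are known to be transcribed under MuvB, which binds the CHR, so its frequency here is no independent result. RefSeq promoters of the mouse assembly GRCm38.p6, from 250 bases before to 50 bases after the annotated start, were matched by symbol for 42 of the 52 genes, with 46 promoters in all. There was no entry for Aurkb, Ccna2, Cdc25c, Dlgap5, Foxm1, Incenp, Kif20a, Smc4, Spc24 and Tpx2. Words were searched on both strands. The cores of the CHR, the element bound by MuvB complexes, have the letters TTTGAA or, in a second form, TTTAAA. The first form stood in 36 of the 46 promoters (78.3%), beside 17.9% of all 32851 promoters of that length and 12% of the 12085 promoters of tested genes. The second form stood in 10 (21.7%), beside 13.2% and 9.11%, and either form in 40 (87.0%), beside 27.6% and 19.4%. CCAAT, the word bound by NF-Y, stood in 33 (71.7%), beside 37.4% and 37.7%. A CHR core together with CCAAT stood in 31 (67.4%), beside 10.7% and 7.61%. The forkhead word GTAAACA stood in 2 (4.35%), beside 3.65% and 2.62%. A CHR core began within 50 bases of the start in 34 promoters (73.9%), beside 8.28% and 5.20%, and the bin from 0 to 25 bases after the start held the most, with 17 promoters (37.0%, against 1.99% of all promoters). A match is a string of letters and does not show binding.

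**Figure D2:**
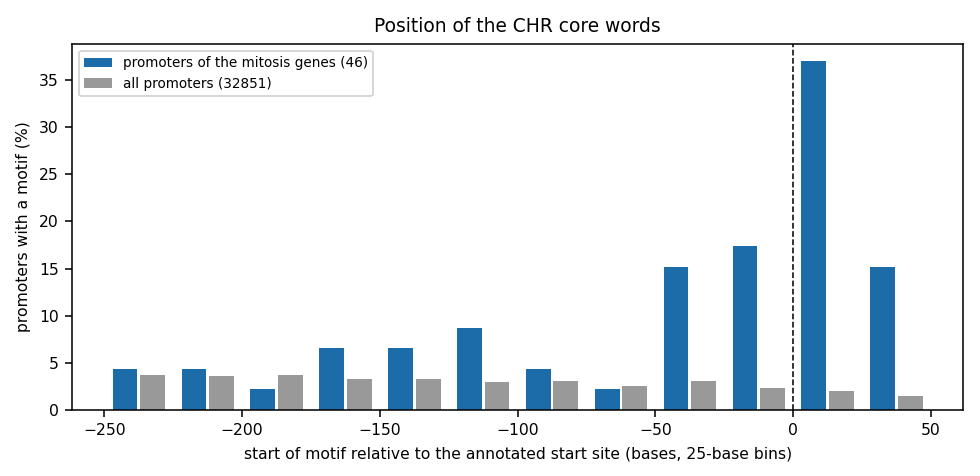
Percent of promoters with a CHR core word, on either strand, beginning in each bin of 25 bases around the annotated start, for the 46 promoters of the mitotic genes (blue) and all 32851 promoters (grey). The blue bars stand farthest above the grey from 50 bases before to 50 bases after the start, with the highest just after it, at 37.0%.

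The 150 bases before the start show these words in genes of several roles, as the coding strand reads from 5′ to 3′, with CHR cores and CCAAT words in capitals. A word on the other strand reads as its reverse complement. They are Ccnb1 at chr13:100786487-100786636 (minus strand), Cdk1 at chr10:69352913-69353062 (minus strand), Plk1 at chr7:122159285-122159434 (plus strand), Cdc20 at chr4:118437344-118437493 (minus strand), Kif11 at chr19:37376232-37376381 (plus strand), Espl1 at chr15:102296143-102296292 (plus strand), Top2a at chr11:99024190-99024339 (minus strand) and Mki67 at chr7:135716380-135716529 (minus strand). The first 7 were higher in CD43++ckit+ cells than in CD43-ckit- cells, and Mki67 was not called.
Ccnb1: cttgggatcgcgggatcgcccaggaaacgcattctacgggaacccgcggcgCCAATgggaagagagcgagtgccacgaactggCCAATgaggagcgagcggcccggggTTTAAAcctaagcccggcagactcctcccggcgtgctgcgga
Cdk1: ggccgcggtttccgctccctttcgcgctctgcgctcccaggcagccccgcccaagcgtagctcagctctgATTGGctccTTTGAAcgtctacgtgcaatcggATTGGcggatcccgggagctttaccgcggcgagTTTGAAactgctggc
Plk1: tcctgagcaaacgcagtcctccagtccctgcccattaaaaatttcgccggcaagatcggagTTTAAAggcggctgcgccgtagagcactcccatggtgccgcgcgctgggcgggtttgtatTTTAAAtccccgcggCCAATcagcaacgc
Cdc20: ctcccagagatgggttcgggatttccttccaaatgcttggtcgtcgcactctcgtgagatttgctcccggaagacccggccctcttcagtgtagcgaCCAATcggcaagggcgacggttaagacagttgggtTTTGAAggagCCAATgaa
Kif11: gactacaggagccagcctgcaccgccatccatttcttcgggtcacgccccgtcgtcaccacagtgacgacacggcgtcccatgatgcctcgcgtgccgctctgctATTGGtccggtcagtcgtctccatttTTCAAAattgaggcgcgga
Espl1: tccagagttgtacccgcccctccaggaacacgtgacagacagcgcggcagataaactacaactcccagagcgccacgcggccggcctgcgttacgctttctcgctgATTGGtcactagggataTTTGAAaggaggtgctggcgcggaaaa
Top2a: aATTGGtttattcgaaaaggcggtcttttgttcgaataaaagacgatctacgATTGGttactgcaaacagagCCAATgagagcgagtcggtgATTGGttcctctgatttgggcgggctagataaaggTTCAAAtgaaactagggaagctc
Mki67: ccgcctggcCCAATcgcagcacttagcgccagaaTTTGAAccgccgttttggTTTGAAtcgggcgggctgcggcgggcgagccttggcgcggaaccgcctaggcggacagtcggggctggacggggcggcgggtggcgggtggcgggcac

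In Ccnb1 a CHR core began 42 bases before the start, with CCAAT words at 99 and 67 bases before it. Cdk1 held a CHR core at 71 and at 15 bases before the start, and Plk1 at 89 and 29. Within the bases printed, the single core lay at 18 bases in Cdc20, 19 in Kif11, 27 in Espl1 and 23 in Top2a. In Mki67 both cores lay farther upstream, at 116 and 98 bases.

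Of the 42 genes with a promoter, 36 held a CHR core and 6 did not. Of the 36, 32 were higher in CD43++ckit+ cells than in CD43-ckit- cells, 0 were lower and 4 were not called, with a median log2 fold change of 1.10. Of the 6 without, 3 were higher (Bub1, Mad2l1 and Nuf2) and 3 lower (Cdc25b, Nusap1 and Pttg1), with a median of 0.48. Over all tested genes, with or without a core, 39.7% were called higher and 27.7% lower. A link between the core and the direction was not tested. The 3 lower genes are printed over the same window, Cdc25b at chr2:131186798-131186947 (plus strand), Nusap1 at chr2:119618148-119618297 (plus strand) and Pttg1 at chr11:43425982-43426131 (minus strand), with CCAAT words on either strand in capitals.
Cdc25b: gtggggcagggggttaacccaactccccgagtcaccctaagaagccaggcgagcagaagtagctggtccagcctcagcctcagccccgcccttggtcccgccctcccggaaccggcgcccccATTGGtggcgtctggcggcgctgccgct
Nusap1: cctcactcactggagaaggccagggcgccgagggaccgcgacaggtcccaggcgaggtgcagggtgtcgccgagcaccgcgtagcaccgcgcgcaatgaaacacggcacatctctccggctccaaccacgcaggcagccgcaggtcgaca
Pttg1: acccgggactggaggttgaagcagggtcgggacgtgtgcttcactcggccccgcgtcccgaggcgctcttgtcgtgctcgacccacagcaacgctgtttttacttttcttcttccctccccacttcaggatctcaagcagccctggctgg

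Cdc25b held a CCAAT word 28 bases before the start, and Nusap1 and Pttg1 held none of these words in the window printed. The fourth lower gene, Incenp, had no promoter entry. That these letters are missing from the windows says nothing about which factors act on the genes.

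Among the 7 genes of mitotic entry, 6 were higher in CD43++ckit+ cells than in CD43-ckit- cells and 6 were higher in CD43+ckit- cells than in CD43-ckit- cells, and Cdc25b was lower in both. Ccnb1, which encodes cyclin B1, had 139, 136 and 144 CPM in CD43++ckit+ libraries, 118, 143 and 168 in CD43+ckit- libraries and 43.3, 62.8 and 65.8 in CD43-ckit- libraries. The CD43-ckit- libraries lay below all others, and the CD43++ckit+ and CD43+ckit- libraries overlapped. Its log2 fold change was 1.29 ± 0.19 (adjusted p = 0.000304) for CD43++ckit+ over CD43-ckit- and 1.32 ± 0.19 (adjusted p = 0.000626) for CD43+ckit- over CD43-ckit-. Ccnb1 has pseudogenes, among them Ccnb1-ps, that share 50-base words with it, and it had the lowest share of such words of its own among the 52.

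Cdk1, the catalytic partner of the mitotic cyclins, had 80.6, 75.6 and 83.3 CPM in CD43++ckit+ cells, 61.9, 81.3 and 88.2 in CD43+ckit- cells and 21.4, 38.8 and 42.1 in CD43-ckit- cells, and was 1.23 ± 0.24 over CD43-ckit- in CD43++ckit+ (adjusted p = 0.00173). Ccna2, which encodes cyclin A2, had 163, 160.3 and 163 CPM in CD43++ckit+ libraries, 185, 180.1 and 213 in CD43+ckit- libraries and 60.5, 84.3 and 87.5 in CD43-ckit- libraries. All of its CD43++ckit+ and CD43+ckit- libraries lay above those of CD43-ckit-, by a log2 fold change of 1.07 ± 0.15 (adjusted p = 0.000296) for CD43++ckit+ and 1.31 ± 0.15 (adjusted p = 0.000264) for CD43+ckit-. Foxm1, the transcription factor of late cell cycle genes, had 59.7, 59.8 and 72.9 CPM in CD43++ckit+ cells, 71.8, 74.5 and 75.0 in CD43+ckit- cells and 21.9, 39.9 and 38.5 in CD43-ckit- cells, with log2 fold changes over CD43-ckit- of 0.94 ± 0.21 (adjusted p = 0.0036) for CD43++ckit+ and 1.14 ± 0.21 (adjusted p = 0.00236) for CD43+ckit-. Ccnb2 and Cdc25c, the other cyclin B gene and a phosphatase that activates CDK1 at mitotic onset, were 0.92 ± 0.19 and 1.08 ± 0.25 over CD43-ckit- in CD43++ckit+.

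Cdc25b, whose phosphatase starts CDK1 activation, ran opposite to its partners. It had 727, 713 and 781 CPM in CD43++ckit+ libraries, 3137, 3366 and 2720 in CD43+ckit- libraries and 8187, 4848 and 4791 in CD43-ckit- libraries. The 3 populations did not overlap, and CD43-ckit- library 1 stood above the other two of its population. The log2 fold change was -3.0 ± 0.23 (adjusted p = 1.07e-05) for CD43++ckit+ over CD43-ckit-, -2.05 ± 0.23 (adjusted p = 0.000406) for CD43++ckit+ over CD43+ckit- and -0.95 ± 0.22 (adjusted p = 0.00639) for CD43+ckit- over CD43-ckit-. With library totals these values were -2.05, -1.78 and -0.26, and the last was not called. The summed erythroid markers had the same order of populations, and their part in the level of Cdc25b was not tested. The promoter of Cdc25b held CCAAT and no CHR core.

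Of the polo and aurora kinases with TPX2, all 4 were higher in CD43+ckit- cells than in CD43-ckit- cells and 3 were higher in CD43++ckit+ cells than in CD43-ckit- cells. Plk1, the polo kinase of spindle assembly and cytokinesis, had 127, 129 and 157 CPM in CD43++ckit+ cells, 124, 177 and 168 in CD43+ckit- cells and 38.0, 68.4 and 74.8 in CD43-ckit- cells. The CD43-ckit- libraries of Plk1 were all lower, by 1.19 ± 0.25 (adjusted p = 0.00251) for CD43++ckit+ over CD43-ckit- and 1.37 ± 0.25 (adjusted p = 0.0022) for CD43+ckit- over CD43-ckit-. Tpx2, which activates aurora A on the spindle, had 170.3, 163 and 145 CPM in CD43++ckit+ libraries, 146, 136 and 164 in CD43+ckit- libraries and 49.3, 69.0 and 64.4 in CD43-ckit- libraries. It had the smallest adjusted p of the genes that were higher in CD43++ckit+ cells than in CD43-ckit- cells (1.39 ± 0.15, adjusted p = 7.55e-05), and was 1.29 ± 0.15 (adjusted p = 0.000274) in CD43+ckit- over CD43-ckit-. Plk4, the kinase of centriole duplication, was 1.43 ± 0.21 over CD43-ckit- in CD43++ckit+. Aurka, which encodes aurora A, was highest in CD43+ckit-, with means of 87.0 ± 7.98 CPM in CD43++ckit+ cells, 127 ± 17.0 in CD43+ckit- cells and 69.5 ± 7.52 in CD43-ckit- cells (SD, n = 3 each). Its difference between CD43++ckit+ and CD43-ckit- was not called (0.32 ± 0.14, adjusted p = 0.0682), while it was 0.87 ± 0.14 (adjusted p = 0.00134) in CD43+ckit- over CD43-ckit-.

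The chromosomal passenger complex joins aurora B to INCENP, survivin and borealin at the centromere and the midzone. Aurkb, the kinase, had 86.5, 89.7 and 108 CPM in CD43++ckit+ cells, 98.7, 102 and 101 in CD43+ckit- cells and 25.6, 45.8 and 47.4 in CD43-ckit- cells, with 1.26 ± 0.22 (adjusted p = 0.000821) for CD43++ckit+ over CD43-ckit- and 1.34 ± 0.22 (adjusted p = 0.00123) for CD43+ckit- over CD43-ckit-. Birc5 (survivin) and Cdca8 (borealin) were also higher than in CD43-ckit-, by 0.78 ± 0.22 and 0.99 ± 0.22 in CD43++ckit+ and by 1.51 ± 0.22 and 1.41 ± 0.22 in CD43+ckit-. The call of Birc5 for CD43++ckit+ over CD43-ckit- was lost with DESeq2 size factors (0.54) and when only these populations were fitted (0.69). Incenp, the scaffold of the same complex, went the other way. Its level was 209, 209 and 229 CPM in CD43++ckit+ libraries, 254, 279.6 and 279.8 in CD43+ckit- libraries and 696, 575 and 472 in CD43-ckit- libraries. Every CD43-ckit- library lay above every other library, and Incenp was -1.43 ± 0.15 (adjusted p = 6.51e-05) in CD43++ckit+ and -1.10 ± 0.15 (adjusted p = 0.000556) in CD43+ckit- relative to CD43-ckit-. With library totals both stayed called, at -0.49 and -0.43. Of the 4 genes of this complex, 3 were thus higher and Incenp was lower in both populations than in CD43-ckit-.

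All 6 spindle checkpoint genes with Cdc20 were higher in CD43++ckit+ and in CD43+ckit- cells than in CD43-ckit- cells, with median log2 fold changes of 1.25 for CD43++ckit+ and 0.97 for CD43+ckit-. Mad2l1, the checkpoint protein that binds CDC20, had 90.5, 87.4 and 74.0 CPM in CD43++ckit+ cells, 64.3, 57.2 and 64.8 in CD43+ckit- cells and 20.6, 33.7 and 35.7 in CD43-ckit- cells, and was 1.48 ± 0.20 (adjusted p = 0.000217) in CD43++ckit+ over CD43-ckit-. Bub1b, which encodes the checkpoint kinase-like protein BUBR1, had 148, 141 and 147 CPM in CD43++ckit+ libraries, 102, 124 and 134 in CD43+ckit- libraries and 74.9, 96.4 and 95.4 in CD43-ckit- libraries. It had the smallest difference of the 6, at 0.71 ± 0.14 (adjusted p = 0.0019) in CD43++ckit+ over CD43-ckit- and 0.43 ± 0.14 (adjusted p = 0.0309) in CD43+ckit- over CD43-ckit-. The call of Bub1b between CD43+ckit- and CD43-ckit- was lost without CD43+ckit- library 2 (0.35), CD43+ckit- library 3 (0.36) or CD43-ckit- library 1 (0.33), and that of Bub1 without CD43+ckit- library 1 (0.62), CD43+ckit- library 3 (0.93) or any CD43-ckit- library (0.74 to 1.03). Both calls were also lost with DESeq2 size factors, the DESeq2 Wald test and a strict filter of at least 1 CPM in all 9 libraries (0.23 to 0.27 for Bub1b and 0.69 to 0.73 for Bub1), that of Bub1b with only the populations compared (0.37) and that of Bub1 with a replicate block over all libraries (0.87). The largest differences between CD43++ckit+ and CD43-ckit- in the group were those of Ttk and Bub1, which encode checkpoint kinases, at 1.75 ± 0.31 and 1.63 ± 0.32. Cdc20, the activator that the checkpoint restrains, was 1.01 ± 0.25 in CD43++ckit+ and 1.43 ± 0.25 in CD43+ckit- over CD43-ckit-, and Bub3, the adaptor of BUB1, was 0.86 ± 0.17 in CD43++ckit+ and 0.79 ± 0.17 in CD43+ckit-.

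At the centromere and kinetochore all 7 genes were higher in CD43++ckit+ and in CD43+ckit- cells than in CD43-ckit- cells, with medians of 1.12 for CD43++ckit+ and 1.21 for CD43+ckit-. Ndc80, whose product forms the microtubule-binding core of the kinetochore, had 22, 26.4 and 23.0 CPM in CD43++ckit+ cells, 42.6, 24.4 and 32.1 in CD43+ckit- cells and 11.5, 13.6 and 17.1 in CD43-ckit- cells. It was 0.76 ± 0.23 (adjusted p = 0.015) in CD43++ckit+ over CD43-ckit- and 1.23 ± 0.23 (adjusted p = 0.00232) in CD43+ckit- over CD43-ckit-, and the call for CD43++ckit+ was lost with DESeq2 size factors and its Wald test (0.52 in both). Its partners Nuf2, Spc24 and Spc25 lay between 1.11 ± 0.26 (Spc25) and 1.47 ± 0.24 (Nuf2) in CD43++ckit+ over CD43-ckit-. Cenpa, the histone variant that marks centromeres, had 129, 126 and 145 CPM in CD43++ckit+ libraries, 185, 218 and 205 in CD43+ckit- libraries and 75.0, 83.7 and 104 in CD43-ckit- libraries. The CD43+ckit- libraries of Cenpa were the highest and the CD43-ckit- libraries the lowest, with 0.61 ± 0.15 (adjusted p = 0.00502) for CD43++ckit+ over CD43-ckit- and 1.21 ± 0.15 (adjusted p = 0.00031) for CD43+ckit- over CD43-ckit-. The call for CD43++ckit+ over CD43-ckit- was lost with DESeq2 size factors (0.37). Cenpe and Cenpf, a kinetochore motor and a kinetochore-associated protein, were 1.51 ± 0.37 and 1.28 ± 0.33 in CD43++ckit+ over CD43-ckit- and 1.06 ± 0.37 and 1.19 ± 0.33 in CD43+ckit- over CD43-ckit-. In CD43+ckit- over CD43-ckit-, the call of Cenpe was lost without CD43++ckit+ library 1 (1.08), CD43+ckit- library 1 (0.74), CD43+ckit- library 3 (1.12) or any CD43-ckit- library (0.89 to 1.19), and that of Cenpf without CD43-ckit- library 1 (1.03). That of Cenpe was also lost with DESeq2 size factors (0.85), the strict filter (0.89) and a replicate block over all libraries (1.04).

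Of the 8 spindle motors and microtubule proteins, 7 were higher and Nusap1 was lower in CD43++ckit+ cells than in CD43-ckit- cells. Kif11, the motor that pushes spindle poles apart, had 154, 176 and 123 CPM in CD43++ckit+ cells, 183, 89.9 and 125 in CD43+ckit- cells and 76.6, 88.3 and 78.7 in CD43-ckit- cells. Library 2 of CD43+ckit- came close to the CD43-ckit- libraries. Kif11 was 0.90 ± 0.24 (adjusted p = 0.00956) in CD43++ckit+ over CD43-ckit- and 0.71 ± 0.24 (adjusted p = 0.0361) in CD43+ckit- over CD43-ckit-, and the second call was lost without CD43+ckit- library 1 (0.42), CD43+ckit- library 3 (0.77) or any CD43-ckit- library (0.68 to 0.78), and with DESeq2 size factors, its Wald test or the strict filter (0.50 to 0.54). Dlgap5, a spindle protein that stabilizes microtubules at kinetochores, had 57.6, 65.3 and 58.6 CPM in CD43++ckit+ libraries, 108, 80.0 and 100.5 in CD43+ckit- libraries and 29.2, 33.3 and 36.8 in CD43-ckit- libraries. It had the smallest adjusted p of the genes that were higher in CD43+ckit- cells than in CD43-ckit- cells (1.54 ± 0.15, adjusted p = 0.000107), with 0.87 ± 0.15 in CD43++ckit+ over CD43-ckit-. Kif22, a chromosome arm motor, had the smallest called difference between CD43++ckit+ and CD43-ckit- (0.42 ± 0.15, adjusted p = 0.0327), and it was lost without CD43++ckit+ library 3 (0.30), CD43+ckit- library 2 (0.41), CD43-ckit- library 1 (0.34) or CD43-ckit- library 2 (0.44). The call of Kif22 was also lost with DESeq2 size factors and its Wald test (0.19 in both), the strict filter (0.25), only the populations compared with or without a replicate block (0.33 and 0.34), and without the least correlated libraries (0.20). Kif2c, a microtubule depolymerase, Kif4, a motor on chromosome arms, and Hmmr, a spindle protein, were 1.22 ± 0.22, 1.22 ± 0.24 and 1.37 ± 0.23 in CD43++ckit+ over CD43-ckit-. In CD43+ckit- 6 of the 8 were higher than in CD43-ckit-, and Nusap1 and Kif15 did not pass the test. Kif15, a motor that backs up KIF11, was 0.91 ± 0.35 (adjusted p = 0.0555) in CD43+ckit- over CD43-ckit-. It was called in 6 of 18 alternative settings, among them the same comparison with the replicate number as a block (0.83).

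Nusap1, which bundles spindle microtubules around chromosomes, had 84.8, 93.5 and 80.2 CPM in CD43++ckit+ cells, 147, 92.8 and 119.6 in CD43+ckit- cells and 137, 125 and 105 in CD43-ckit- cells. All CD43++ckit+ libraries lay below all CD43-ckit- libraries, while CD43+ckit- overlapped both. It was -0.51 ± 0.18 (adjusted p = 0.0306) in CD43++ckit+ over CD43-ckit- with TMM, but 0.42 and called higher with library totals, so its direction depends on the scaling. The call was also lost without any 1 of the CD43++ckit+ libraries (-0.55 to -0.44), CD43+ckit- library 3 (-0.49), CD43-ckit- library 1 (-0.41) or CD43-ckit- library 2 (-0.49). Between CD43+ckit- and CD43-ckit- it was -0.033 ± 0.18 with TMM and 0.62 with library totals. The 150 bases before its start held neither a CHR core nor CCAAT, and those of Pttg1 held neither as well.

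**Figure D3:**
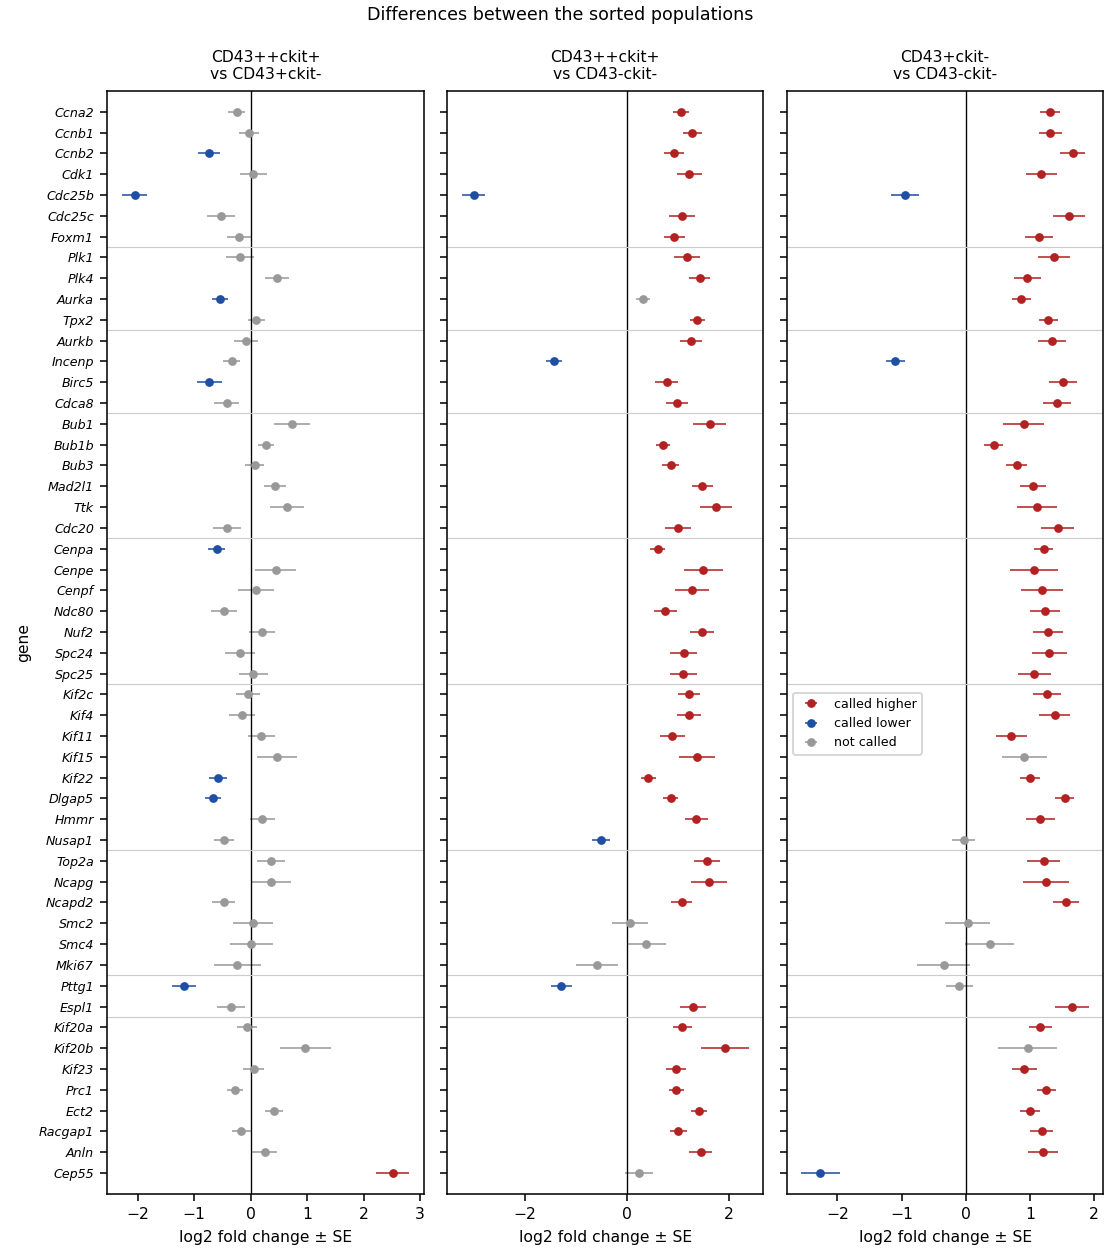
Log2 fold change ± standard error of each of the 52 genes (rows, by role) in the comparisons of CD43++ckit+ with CD43+ckit-, CD43++ckit+ with CD43-ckit- and CD43+ckit- with CD43-ckit-, with colour for the call. Most points lie near 1 in the comparisons with CD43-ckit- and near 0 between CD43++ckit+ and CD43+ckit-, and the lower call of Nusap1 turns higher with library totals.

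The genes of chromosome structure split evenly. Top2a, Ncapg and Ncapd2 were higher in CD43++ckit+ and in CD43+ckit- cells than in CD43-ckit- cells, while Smc2, Smc4 and Mki67 were called in neither comparison. Top2a, the topoisomerase that untangles sister chromatids, had 544, 594 and 442 CPM in CD43++ckit+ libraries, 505, 307 and 417 in CD43+ckit- libraries and 122, 214 and 196 in CD43-ckit- libraries, and was 1.57 ± 0.25 (adjusted p = 0.000559) in CD43++ckit+ over CD43-ckit-. NCAPG and NCAPD2 are subunits of condensin I, and their genes were 1.62 ± 0.36 and 1.08 ± 0.20 in CD43++ckit+ over CD43-ckit-. The call of Ncapg between CD43+ckit- and CD43-ckit-, at 1.25 ± 0.36, was lost without CD43+ckit- library 1 (0.87) or CD43-ckit- library 1 (1.04). Smc2 and Smc4, which encode the core ATPases shared by both condensins, were 0.072 ± 0.35 (adjusted p = 0.863) and 0.39 ± 0.38 (adjusted p = 0.378). Smc4 had 142, 177 and 88.8 CPM in CD43++ckit+ cells, 222, 73.0 and 109 in CD43+ckit- cells and 105, 105 and 101 in CD43-ckit- cells, so the CD43-ckit- libraries agreed closely and lay inside the wide range of the others. Smc2 ranged likewise, from 73.5 to 136 CPM in CD43++ckit+ cells, 58.8 to 164 in CD43+ckit- cells and 91.0 to 108 in CD43-ckit- cells.

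Mki67 encodes Ki-67, the proliferation marker that coats mitotic chromosomes, and had 572, 694 and 309.9 CPM in CD43++ckit+ libraries, 1028, 344 and 488 in CD43+ckit- libraries and 965, 716 and 679 in CD43-ckit- libraries. The CD43-ckit- mean was the highest of the 3 with TMM, though not with library totals, and the libraries of all populations overlapped. Its log2 fold change was -0.58 ± 0.41 (adjusted p = 0.229) for CD43++ckit+ over CD43-ckit- and -0.34 ± 0.41 (adjusted p = 0.492) for CD43+ckit- over CD43-ckit-. The comparison of CD43+ckit- with CD43-ckit- was called in 2 of 18 alternative settings, among them the replicate number as a block (-0.54). With library totals the value was 0.34 for CD43++ckit+ over CD43-ckit- and 0.31 for CD43+ckit- over CD43-ckit-, both not called. For Mki67, Smc2 and Smc4 alike, library 3 was the lowest of CD43++ckit+ and library 1 the highest of CD43+ckit-.

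Sister separation was represented by separase and its inhibitor. Espl1 (separase), the protease that opens cohesin, had 116, 124 and 140.4 CPM in CD43++ckit+ cells, 149, 174 and 162 in CD43+ckit- cells and 29.5, 57.4 and 66.8 in CD43-ckit- cells. It was 1.31 ± 0.26 (adjusted p = 0.00175) in CD43++ckit+ over CD43-ckit- and 1.66 ± 0.26 (adjusted p = 0.00104) in CD43+ckit- over CD43-ckit-. Pttg1 (securin), which holds separase inactive until anaphase, had 19.4, 20.1 and 17.0 CPM in CD43++ckit+ libraries, 46.7, 40.5 and 40.5 in CD43+ckit- libraries and 61.1, 32.9 and 43.1 in CD43-ckit- libraries. Every CD43++ckit+ library of Pttg1 lay below every other library, while those of CD43+ckit- and CD43-ckit- overlapped. Pttg1 was -1.28 ± 0.21 (adjusted p = 0.000653) in CD43++ckit+ over CD43-ckit- and -1.18 ± 0.21 (adjusted p = 0.00252) in CD43++ckit+ over CD43+ckit-. With library totals the value over CD43-ckit- was -0.34 and not called, and CD43+ckit- over CD43-ckit- was 0.58 and called, beside -0.10 ± 0.21 with TMM. In CD43++ckit+ the inhibitor was thus lower and the protease higher than in CD43-ckit-.

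Of the 8 cytokinesis genes, 7 were higher in CD43++ckit+ cells than in CD43-ckit- cells and 6 were higher in CD43+ckit- cells than in CD43-ckit- cells. Prc1, which bundles the microtubules of the central spindle, had 90.1, 90.1 and 85.2 CPM in CD43++ckit+ cells, 113, 93.9 and 116 in CD43+ckit- cells and 36.6, 48.4 and 50.5 in CD43-ckit- cells, with 0.97 ± 0.15 (adjusted p = 0.000405) for CD43++ckit+ and 1.25 ± 0.15 (adjusted p = 0.000278) for CD43+ckit- over CD43-ckit-. Ect2, the exchange factor that activates RhoA at the cleavage furrow, had 47.9, 48.7 and 39.2 CPM in CD43++ckit+ libraries, 35.5, 30.9 and 35.6 in CD43+ckit- libraries and 13.9, 19.0 and 18 in CD43-ckit- libraries, and was 1.42 ± 0.16 (adjusted p = 8.52e-05) in CD43++ckit+ over CD43-ckit-. Kif23 and Racgap1, whose products form the centralspindlin complex that recruits ECT2, were 0.96 ± 0.19 and 1.01 ± 0.17 in CD43++ckit+ over CD43-ckit-, and Anln, the anillin of the contractile ring, was 1.45 ± 0.23. Kif20a and Kif20b, motors of the midzone, were 1.09 ± 0.18 and 1.93 ± 0.47, the second being the largest fold change of the 52 genes in this comparison in the higher direction. Kif20b was 0.96 ± 0.46 (adjusted p = 0.104) in CD43+ckit- over CD43-ckit-. It was called in 3 of 18 alternative settings, among them the replicate number as a block (0.82).

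Cep55, which recruits the machinery of abscission to the midbody, followed another order. It had 4.94, 4.10 and 4.04 CPM in CD43++ckit+ cells, 0.672, 0.939 and 0.673 in CD43+ckit- cells and 2.75, 4.32 and 3.95 in CD43-ckit- cells, so its low point was CD43+ckit-. The CD43+ckit- values rest on 20 to 28 counts per library, beside 150 to 193 for CD43++ckit+ and 35 to 66 for CD43-ckit-. The log2 fold change was 2.51 ± 0.30 (adjusted p = 0.000486) for CD43++ckit+ over CD43+ckit- and -2.27 ± 0.30 (adjusted p = 0.000443) for CD43+ckit- over CD43-ckit-, and 0.25 ± 0.28 (adjusted p = 0.437) for CD43++ckit+ over CD43-ckit-. Cep55 was the only gene of the 52 with its lowest mean in CD43+ckit-, and a filter that asked for at least 1 CPM in all 9 libraries removed it.

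**Figure D4:**
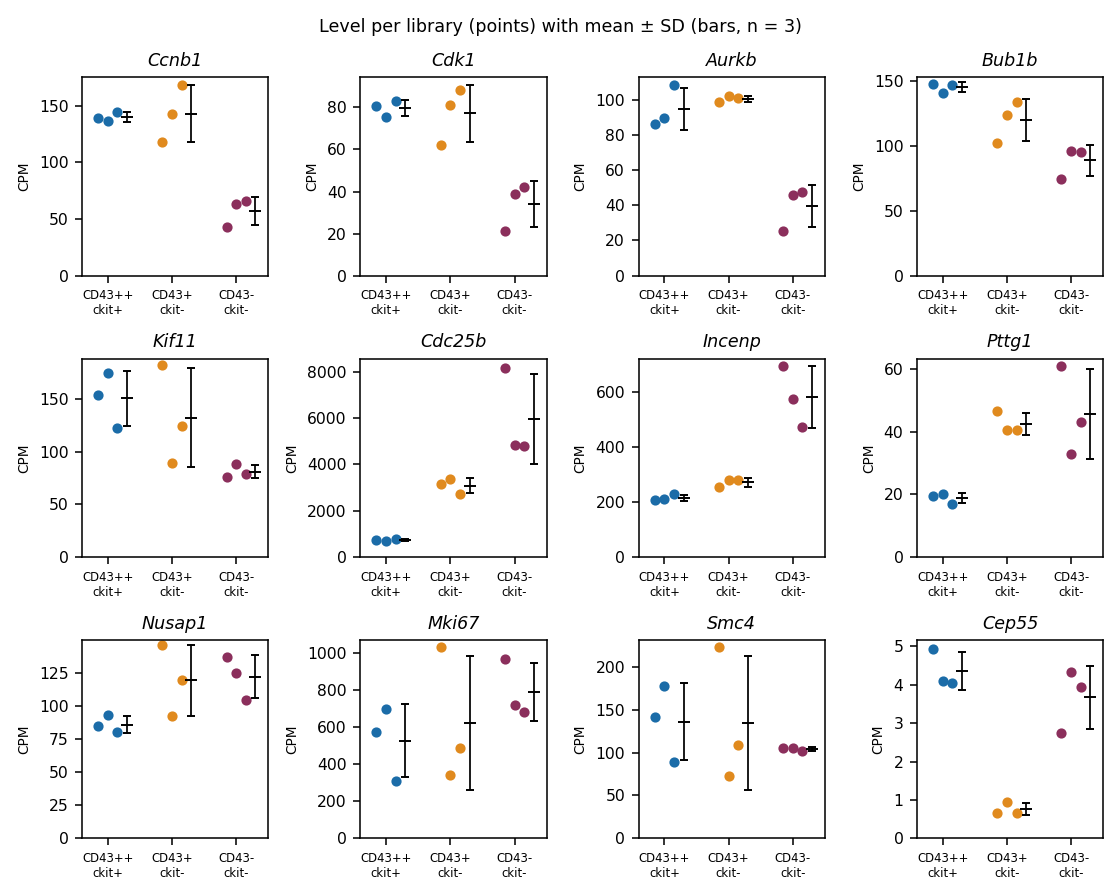
CPM (TMM-scaled) of 12 genes in each library (points, 3 per population) with the mean ± SD beside them. Ccnb1, Cdk1, Aurkb, Bub1b and Kif11 are lowest in CD43-ckit-, Cdc25b and Incenp are highest there, Pttg1 and Nusap1 are lowest in CD43++ckit+ (for Nusap1 not with library totals), Mki67 and Smc4 overlap, and Cep55 is lowest in CD43+ckit-.

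Between CD43++ckit+ and CD43+ckit- cells, which differ in c-Kit and in the level of CD43, few of the mitotic genes differed. Cep55 was higher in CD43++ckit+, and 8 genes were lower: Ccnb2, Cdc25b, Aurka, Birc5, Cenpa, Kif22, Dlgap5 and Pttg1. This was 9 of 52 genes (17.3%), a smaller share than the 39.8% called over all tested genes (19.7% higher and 20.1% lower). The libraries did not overlap for 20 of the 52 genes, and for 55.5% of all tested genes. The median of the 52 log2 fold changes was -0.053, beside 0.013 over all tested genes. With library totals the median turned to 0.21, with that of all genes at 0.28, and 4 genes were called higher and 2 lower. Of all called genes, 49.4% were higher with TMM and 67% with library totals. A gene that was not called may still differ, since the spread between libraries was wide for many of them.

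Among the called genes Dlgap5 was -0.67 ± 0.15 (adjusted p = 0.00618) in CD43++ckit+ over CD43+ckit- and Cenpa was -0.60 ± 0.14 (adjusted p = 0.00964). The calls of both were lost with library totals (-0.40 for Dlgap5 and -0.33 for Cenpa), and that of Cenpa also without CD43+ckit- library 2 (-0.50). Ccnb2 was -0.74 ± 0.19, Birc5 -0.73 ± 0.22, Kif22 -0.58 ± 0.15 and Aurka -0.54 ± 0.14, and each of these calls was lost with library totals (-0.47 to -0.27) and without CD43++ckit+ library 1 (-0.71 to -0.50), CD43++ckit+ library 2 (-0.69 to -0.50) or CD43+ckit- library 2 (-0.70 to -0.41). Those of Birc5, Kif22 and Aurka were also lost without CD43+ckit- library 3 (-0.74 to -0.51), and that of Birc5 without CD43+ckit- library 1 (-0.70). Ccnb1, Cdk1, Plk1 and Aurkb did not pass the test: Ccnb1 was -0.030 ± 0.18, Cdk1 0.049 ± 0.24, Plk1 -0.18 ± 0.25 and Aurkb -0.083 ± 0.21. The 6 checkpoint genes lay between -0.42 ± 0.25 (Cdc20) and 0.73 ± 0.31 (Bub1), and none was called.

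The number of calls in this comparison depended on single libraries. Leaving out CD43++ckit+ library 1, CD43++ckit+ library 2 or CD43+ckit- library 2 gave 5 called genes (beside 27.3%, 28% and 31.3% of all tested genes), and leaving out CD43-ckit- library 1, which enters only through the shared spread and the scaling, gave 18 (45.3% of all genes). Fitting only the populations compared gave 15 (3 higher and 12 lower, beside 46.1% of all genes). Without the least typical library of each population, by its correlation with the others of its population (library 3 of CD43++ckit+, library 1 of CD43+ckit- and library 1 of CD43-ckit-), 37 genes were called, 19 higher and 18 lower, beside 67.6% of all genes tested in that fit. Of the neutrophil markers, these libraries held 7181 CPM in CD43++ckit+, where the other two held 425 and 116 CPM, and 592 CPM in CD43+ckit-, where the other two held 3919 and 3093 CPM. Their part in the result was not tested.

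The spread between libraries of CD43++ckit+ and of CD43+ckit- moved with the base composition and the length of the transcripts. All 52 genes had a length and a GC content from a reference annotation, taken from the longest coding transcript, and these correlations run across genes, which are not independent replicates. The log2 ratio of CD43++ckit+ library 3 to library 2 was higher in genes of higher GC content (Spearman's rho 0.83), with medians of 0.14 in the 26 genes of 46.2% to 56.1% GC and -0.30 in the 26 genes of 39.4% to 46.1%. The ratio of CD43+ckit- library 1 to library 2 ran the other way (rho -0.70, medians -0.14 and 0.70 in the same order). The log2 fold change of CD43++ckit+ over CD43+ckit- also followed GC content (rho -0.63). It was positive for 4 of the 26 genes of higher GC content and for 20 of the 26 of lower GC content, with medians of -0.29 and 0.20. For CD43++ckit+ over CD43-ckit- the medians were 1.00 and 1.33 (rho -0.34). The same ratios also followed transcript length, with rho -0.58 for the CD43++ckit+ libraries, 0.53 for the CD43+ckit- libraries and 0.46 for CD43++ckit+ over CD43+ckit-. The ratio of CD43-ckit- library 1 to library 2 showed little relation to either (rho -0.097 with GC content and -0.029 with length). For CD43+ckit- over CD43-ckit- rho was 0.38 with GC content and -0.213 with length. The part of base composition and length in the calls was not tested.

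**Figure D5:**
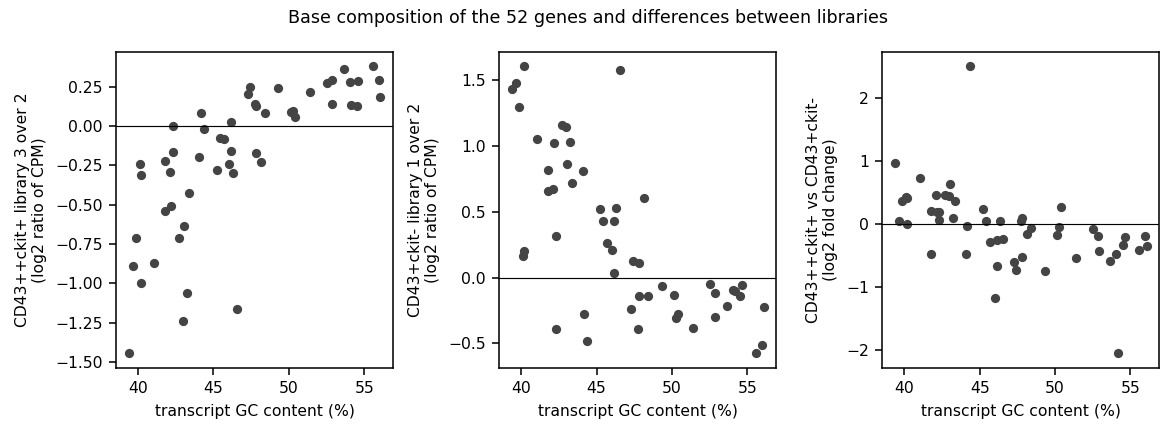
Each point is 1 of the 52 genes, by transcript GC content (percent) and the log2 ratio of CPM between 2 libraries of CD43++ckit+, between 2 libraries of CD43+ckit-, and the log2 fold change of CD43++ckit+ over CD43+ckit-. The points rise with GC content in the first panel and fall in the other panels.

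Other genes of the pathway were counted in the same fit, in lists drawn up with earlier results of these data known. They are therefore no separate check. Of 59 further mitotic genes, 49 were higher and 4 lower in CD43++ckit+ cells than in CD43-ckit- cells, with a median of 1.14, and 50 were higher and 2 lower in CD43+ckit- cells than in CD43-ckit- cells. That was 89.8% and 88.1% called, beside 67.4% and 51.9% of all tested genes. The higher genes with the smallest adjusted p in CD43++ckit+ over CD43-ckit- were Cenpn, a kinetochore gene (1.51 ± 0.17, adjusted p = 9.1e-05), and Wee1, the kinase that restrains CDK1 (1.73 ± 0.20, adjusted p = 9.57e-05). Wee1 had 54.2, 51.0 and 54.0 CPM in CD43++ckit+ libraries, 24.8, 29.3 and 31.4 in CD43+ckit- libraries and 11.3, 19.6 and 17.1 in CD43-ckit- libraries, and was also 0.90 ± 0.19 (adjusted p = 0.00601) in CD43++ckit+ over CD43+ckit-. Wee1, which opposes CDC25, thus had its levels in the reverse order of those of Cdc25b. Lower in CD43++ckit+ cells than in CD43-ckit- cells were Gtse1 (-1.85 ± 0.15, adjusted p = 1.33e-05) and Psrc1 (-1.81 ± 0.20, adjusted p = 8.16e-05), genes of microtubule-binding proteins.

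Of 18 APC/C genes and regulators, 9 were higher and 4 lower in CD43++ckit+ cells than in CD43-ckit- cells, and 12 were higher and 3 lower in CD43+ckit- cells than in CD43-ckit- cells. In the same order 72.2% and 83.3% of the list were called, beside 67.4% and 51.9% of all tested genes. The first share was thus near that of all genes. Of the 14 core subunits, 8 were higher, Anapc2, of the catalytic part, was lower (-1.10 ± 0.14, adjusted p = 0.000143) and 5 were not called. The higher genes with the smallest adjusted p were Anapc1 (1.26 ± 0.12, adjusted p = 3.87e-05) and Cdc23 (1.43 ± 0.14, adjusted p = 4.15e-05), whose reference transcript shares 50-base words with that of Kif20a. Ube2c, the ubiquitin-conjugating enzyme of APC/C, had 167, 157 and 201 CPM in CD43++ckit+ cells, 287, 430.3 and 383 in CD43+ckit- cells and 2906, 2702 and 2206 in CD43-ckit- cells. Its level in CD43-ckit- lay far above the others, with -3.89 ± 0.21 (adjusted p = 1.9e-06) for CD43++ckit+ over CD43-ckit-. Fzr1, the APC/C activator that replaces CDC20 on leaving mitosis, had 121, 121 and 169 CPM in CD43++ckit+ libraries, 432, 539.5 and 398 in CD43+ckit- libraries and 1306, 807 and 798 in CD43-ckit- libraries, and was -2.83 ± 0.25 (adjusted p = 2.27e-05). Fzr1 and Cdc20 therefore lay in opposite directions between CD43++ckit+ and CD43-ckit-.

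Of 13 cohesin genes, 7 were higher and 2 lower in CD43++ckit+ cells than in CD43-ckit- cells, and 3 were higher and 3 lower in CD43+ckit- cells than in CD43-ckit- cells. Calls thus took 69.2% and 46.2% of the list, near the 67.4% and 51.9% of all tested genes. Sgol1, which protects centromeric cohesin, was 1.43 ± 0.20 (adjusted p = 0.000269) in CD43++ckit+ over CD43-ckit-, and Pds5b, a cohesin regulator, was 1.67 ± 0.31 (adjusted p = 0.00127). Mau2, of the cohesin loader, and Wapal, of the cohesin release factor, were -2.06 ± 0.19 (adjusted p = 2.91e-05) and -1.80 ± 0.34 (adjusted p = 0.00138). Of 11 genes of the MuvB core, B-MYB and the pocket proteins, 5 were higher and 4 lower in CD43++ckit+ cells than in CD43-ckit- cells, and 5 were higher and 2 lower in CD43+ckit- cells than in CD43-ckit- cells. Their called shares were 81.8% and 63.6%, beside the same 67.4% and 51.9% of all tested genes. Rbl1, which encodes a pocket protein, and Tfdp1, which encodes a partner of E2F, were 1.73 ± 0.24 (adjusted p = 0.000227) and 1.40 ± 0.26 (adjusted p = 0.00124). Lin37, a subunit of MuvB, was -2.97 ± 0.15 (adjusted p = 1.58e-06), and Rb1, the retinoblastoma gene, was -1.42 ± 0.31 (adjusted p = 0.00323). Lin37 had 17.1 to 20.5 CPM in CD43++ckit+ cells, 34.0 to 43.7 in CD43+ckit- cells and 131 to 163 in CD43-ckit- cells, with no overlap between populations. Between CD43++ckit+ and CD43+ckit-, 11 of the 59 further mitotic genes (4 higher and 7 lower) and 6 of the APC/C list (all lower) were called. So were 3 of the cohesin list (2 higher and 1 lower) and 5 of the MuvB list (2 higher and 3 lower). In the same order these were 18.6%, 33.3%, 23.1% and 45.5% of the lists, beside 39.8% of all tested genes.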

How the data were processed

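RNA had been made into libraries and sequenced on an Illumina instrument, and the deposited table holds whole-number counts per mouse gene symbol for 9 libraries, titled as HTSeq counts by the authors. CASAVA 1.8, TopHat2 2.0.4, RSEM, edgeR and HTSeq are named without roles, per the submitters' processing notes. The build named there is human while the symbols are of mouse, so for the counts a build, annotation and strand setting were not given in the sources used here. Every count entered library sizes, and 27 rows named by dates stayed in the fit unnamed.

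The test was run with edgeR 4.0.16 under R 4.3.3 (filterByExpr with minimum count 10 and minimum total 15, TMM, estimateDisp, robust glmQLFit and glmQLFTest) in 1 model of 3 group means over all 9 libraries. Each of the 3 pairwise comparisons was adjusted by Benjamini-Hochberg over the 12573 genes tested, with a threshold of 0.05. The standard error is the size of the log2 fold change divided by the square root of F. Sampling noise was exceeded by every pair of libraries of a population (chi-square per degree of freedom 15.2 to 118). On simulated counts for CD43++ckit+ over CD43-ckit- with 12573 genes, 43 of 100 genes changed by a log2 fold change of 1 were recovered, and 77 of 100 changed by 2. Of 129 calls, 9 were false. No other genes were changed in the simulation, while 67.4% of tested genes were called in this comparison of the data. Recovery in the data may therefore differ.

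The 52 genes and all lists were chosen with earlier results of these data known. Values in every library are given for the 4 called genes with the smallest adjusted p in each direction of a comparison, an anchor gene per role, Mki67 and Foxm1, genes called against the majority, and those a filter removed. From each further list the 2 called genes with the smallest adjusted p in each direction of CD43++ckit+ over CD43-ckit- are named. Other genes named for a family or for lost calls were chosen after their values were seen. Marker sums and the search for promoter words carry no test. A further list of cell markers is not reported here. Promoters are those of RefSeq, and GC content and 50-base words came from the longest coding transcript in a reference annotation, in Python 3.11.15.

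Libraries carry replicate numbers in the labels. Deviations from the group mean in CD43+ckit- and CD43-ckit- libraries of the same number had correlations of 0.53, 0.37 and 0.30, all over the 0.1 set beforehand. Libraries of unlike number, 2 with 3 and 3 with 2, correlated at 0.34 and 0.35, so these values do not show a pairing. A fit with the replicate number as a block was run beside the main one as an alternative. Alternatives were DESeq2 1.42.0 size factors and its Wald test, library totals, other low-count filters, only the populations compared, replicate blocks and leaving out libraries.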

Additional observations from a re-analysis of the deposited data

How the results depend on the processing

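The comparisons with CD43-ckit- changed little in their counts. Over 18 alternative settings, 43 to 50 of the 52 genes were called between CD43++ckit+ and CD43-ckit- (47 in the main analysis). That stood beside 48.3% to 81.9% of all tested genes. Between CD43+ckit- and CD43-ckit- 39 to 49 were called (45), beside 36.8% to 70.2%. In those settings that keep all 3 populations, 45 to 52 were called in the joint test (49, beside 74.8% in the main analysis). With library totals the median log2 fold change was 1.96 and 1.79 in these comparisons and 0.21 for CD43++ckit+ over CD43+ckit-, with the shift of all genes given in the report. The count between CD43++ckit+ and CD43+ckit-, 9 in the main analysis (beside 39.8% of all genes), was 15 when only these populations were fitted (46.1%). Leaving out single libraries gave 5 to 18 (27.3% to 46.3%). Without the 3 libraries that correlated least within their populations it was 37 (67.6%). The cause was not tested.

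For the other lists in that comparison, the APC/C count of 6 was 10 with the DESeq2 Wald test and 11 without the least correlated libraries. The cohesin count of 3 was 13 without these libraries and 1 to 4 without single libraries. The count of further mitotic genes, 11, was 6 with library totals, 33 without the least correlated libraries and 5 to 16 without single libraries. The MuvB count of 5 was 2 to 7. Of all genes, 67.6% were called without the least correlated libraries, 44.8% with the DESeq2 Wald test and 41.7% with library totals. Without single libraries it was 27.3% to 46.3%, against 39.8% in the main analysis. With library totals Nusap1 turned to 0.42 for CD43++ckit+ over CD43-ckit- and to 0.62 for CD43+ckit- over CD43-ckit-, and Pttg1 to 0.58 in the second of these. Without the least correlated libraries Mki67 turned to 0.60 for CD43++ckit+ over CD43+ckit-, and Smc2 to -0.47 for CD43+ckit- over CD43-ckit-.

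With the replicate number as a block in a fit of CD43+ckit- and CD43-ckit- alone, 48 genes were called (44 higher and 4 lower, beside 67.2% of all genes, against 51.9% in the main analysis), and Kif15, Kif20b and Mki67 gained a call and none of the 52 lost one. With a block over all libraries 43 were called (52.3% of all genes), and Bub1 and Cenpe were among the calls lost. Same-numbered libraries of CD43++ckit+ and CD43+ckit- correlated at 0.45, -0.62 and 0.38, and those of CD43++ckit+ and CD43-ckit- at 0.26, -0.32 and 0.25. With a block in fits of each pair alone, 10 and 47 genes were called in these comparisons, beside 33.8% and 62% of all genes. Not every library correlated best with its own number. Library 3 of CD43+ckit- and of CD43-ckit- correlated more with library 2 of the other (0.35 and 0.34) than with its library 3 (0.30). A pairing by number was therefore not shown for any populations, and calls gained with a block rest on an assumed one.

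With 3 libraries a population, differences of a log2 fold change of 1 were recovered for 43 of 100 genes in simulated data. Far fewer genes changed in the simulation than were called in the data, so this share need not hold for the data. Depth limits Cep55 most, at 20 to 28 counts in CD43+ckit-, and a filter of at least 1 CPM in all 9 libraries left 51 genes tested.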
